A study of Mus musculus with 21 samples.

Results

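The subunits of the mitochondrial respiratory chain and ATP synthase that are encoded in the nucleus were followed across 10 groups of mouse tissue. Members were taken by gene name: Nduf genes with the letters a, b, c, s or v and a number, the Sdh genes a to d, names starting Uqcr, the Cox4 to Cox8 genes, and names starting Atp5. Names starting Ndufaf (assembly factors) or Cox4nb were left out. The rule found 85 genes in each of the 3 tables, of 40770 genes in the linc-Brn1b table and 42760 in each of the linc-Foxf1a and linc-Sox2 tables. They divided by name into 37 genes of complex I, 4 of complex II, 9 of complex III, 18 of complex IV and 17 of complex V.

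Oxidative phosphorylation passes electrons from NADH through complex I, or from succinate through complex II, to complex III and then to complex IV, which reduces oxygen. Complexes I, III and IV pump protons, and complex V lets them back to make ATP. Most subunits come from nuclear genes that every cell uses, several are present as paralogues used in heart, skeletal muscle, testis or lung, and a small number of core subunits of all but complex II come from mitochondrial DNA. The brain relies on this pathway for most of its ATP after birth, while progenitors of the embryonic brain draw more on glycolysis.

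In each strain a long intergenic noncoding RNA gene had been replaced by a lacZ reporter with a neomycin resistance gene, in hybrid 129S6SvEv and C57BL/6N embryonic stem cells, and the mice were backcrossed once with C57BL/6J. The groups compared were homozygous knockouts and their wild type littermates: linc-Brn1b-/- and linc-Brn1b+/+ telencephalon at embryonic days E13.5 and E15.5, whole brain of the same strain on postnatal day 7 (P7), linc-Foxf1a-/- and linc-Foxf1a+/+ lung at E14.5, and linc-Sox2-/- and linc-Sox2+/+ brain at E18.5. The noncoding RNAs of the last 2 strains are also known as Fendrr and Peril. By the labels RNA-Seq gave 2 libraries for each group and 3 for the E15.5 knockout, and whether all of the latter entered its value is not known. The tables hold 1 FPKM value for each gene and group (fragments scaled by transcript length and by the number of mapped fragments). No spread between animals could therefore be computed, no value below has an error or a test, and the read depth behind the values is unknown.

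The deleted genes were examined first. The linc-Brn1b row had 1.599, 2.498 and 0.799 FPKM in wild type in order of age and was listed at 0 in the knockout at each age. In lung, linc-Cox4nb-4, the row at the Fendrr locus, had 38.4 FPKM in wild type and 0.0450 in the knockout. In brain at E18.5, linc-Atp11b-4, the row downstream of Sox2 where Peril lies, had 0.0109 FPKM in the column read as wild type and 4.65 in that read as knockout. This is the reverse of what deletion of the row would give. In the linc-Brn1b strain, where Peril was not the targeted gene, the same row was near 0 in both genotypes. It had 0.0397, 0.0446 and 0.0133 FPKM in wild type in order of age. The knockout values were 0.0286, 0.0443 and 0.0127. Where linc-Atp11b-4 lies relative to the deleted stretch was not analysed here. The column order of the linc-Foxf1a and linc-Sox2 values was assumed to be that of linc-Brn1b, and the direction of every E18.5 difference rests on it. Below, the E18.5 libraries labelled knockout are the column read as knockout.

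Sex also differed between the pooled groups. Summed over 4 genes of the Y chromosome (Uty, Kdm5d, Ddx3y and Eif2s3y), the level was 49.2 FPKM in wild type and 0.0133 in the knockout at E13.5, and 33.6 and 0 in lung. It was 0.00662 and 21.0 at E15.5, 0.0357 and 23.2 at P7, and 0.0256 and 26.4 at E18.5. Xist, which female cells express from the inactive X chromosome, had 52.0 FPKM in wild type and 106 in the knockout lung, and 92.5 and 47.9 at E18.5, so the wild type lung and the E18.5 libraries labelled knockout held RNA of both sexes. Sex composition and genotype therefore cannot be told apart in any of the 5 comparisons. In bulk tissue, fewer cells of a type and less RNA per cell cannot be told apart either.

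In wild type, complex V and the Nduf genes supplied most of the members' FPKM. The median member stood at 96.2, 98.4 and 118 FPKM over the 3 ages of the linc-Brn1b strain, at 112 in lung and at 114 at E18.5. Atp5b, the catalytic beta subunit of ATP synthase, was the highest member in 4 of the 5 wild type groups, with levels of 556, 495 and 598 FPKM over the 3 ages of the linc-Brn1b strain and 597 FPKM in lung. At E18.5 Atp5k, a small subunit of the membrane part, stood at 616 and Atp5b at 567. Ndufa4 led the Nduf genes in every wild type group, from 267 FPKM at E13.5 to 548 at P7, and Uqcrh, the hinge protein of complex III, led its complex with 252 to 360 FPKM. Sdhb, the iron-sulfur subunit of complex II, led its complex with 104 to 132 FPKM. In complex IV the pair Cox4i1 and Cox6b1 led, with 328 and 326 FPKM at E13.5 and 468 and 489 at P7.

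The members' promoters were read in the RefSeq sequences of GRCm38.p6, from 250 bases before to 50 bases after each annotated start. Of 84 names looked for, 69 matched, with 75 windows of 300 bases, and Uqcr shares its locus with Uqcr11 and was not counted again. Short cores of the binding sites of NRF1 (GCGCATG), of ETS factors such as GABPA (CCGGAAG) and of YY1 (AAGATGG) were searched on both strands. The ETS word ends with the letters AAG that start the YY1 word, so both can share bases, and the NRF1 word can be matched on both strands of 1 site, as in Atp5k and Atp5g2. The NRF1 letters stood in 17.3% of the members' windows and 3.91% of all 32851 windows. The ETS letters stood in 21.3% and 8.86%, and the YY1 letters in 17.3% and 6.34%. At least 1 of the 3 was in the windows of 33 of the 69 members (45.3% of member windows, 17.5% of all windows). A match is a description of the letters and not a measured binding site.

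The stretches below are examples from members whose window holds a word, picked after their values were seen, with the matched letters in capitals. Atp5e, Atp5l and Uqcr11 are among the 6 lowest members at E13.5 and Atp5g2 is an exception between ages. Ndufb2, which was lower than Atp5l and Uqcr11 at E13.5, holds none of the 3 words in its window, and Uqcrq and Ndufa2, also lower, were not among the matched names. Those with NRF1 letters were Atp5k (chr5:108434434-108434458, minus strand), Uqcr11 (chr10:80406809-80406833, plus strand) and Atp5g2 (chr15:102671074-102671098, minus strand).
Atp5k: ttcactgcgGCGCATGcgcctttct
Uqcr11: agacgtataGCGCATGcgtgaaggc
Atp5g2: gctccggccGCGCATGcgcagagcc
Those with ETS letters were Atp5e (chr2:174464188-174464212, plus strand), Atp5l (chr9:44920703-44920727, plus strand) and Uqcrh (chr4:116075065-116075089, plus strand).
Atp5e: gagcggctaCCGGAAGctgtggccg
Atp5l: atgtcacccCCGGAAGgacccgcgg
Uqcrh: gcgacctggCCGGAAGtgcggcata
Those with YY1 letters were Atp5j (chr16:84835049-84835073, minus strand) and Ndufs7 (chr10:80249464-80249488, plus strand).
Atp5j: agtgtaggaAAGATGGcggagtctt
Ndufs7: gccgaggccAAGATGGcggcgctgg

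To compare groups, the log2 difference was taken as log2 of (FPKM + 1) in the second group over (FPKM + 1) in the first, over genes whose mean FPKM in the pair was at least 1. A gene was counted as higher or lower by the fold threshold when that difference reached 0.32 in either direction. Each count of members is set beside the percentage of all genes past the same minimum.

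The largest difference between genotypes lay in the E13.5 telencephalon. Of the 80 members past the minimum, 72 were lower in the knockout by the fold threshold, against 12.3% of all genes, and 0 were higher, against 10.2% of all genes. The members' median log2 difference was -0.82, and that of all 13507 genes was 0.06. Summed over the members, FPKM was 10457 in wild type and 5560 in the knockout. At any size, 4 members were higher, where 58.9% of all genes were. Scaling both groups to the same sum over all genes, which adds 0.19 to the log2 ratio of FPKM and less to the difference of genes at low FPKM, gave a members' median of -0.63.

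Every complex was lower. The count past the threshold was 34 of 37 in complex I (median -0.83), 3 of 4 in complex II (median -0.70), 9 of 9 in complex III (median -1.14), 11 of 13 in complex IV (median -0.85) and 15 of 17 in complex V (median -0.80). The complex III median is the value of Uqcr, a row at low level (2.35 and 0.523 FPKM). Among members at 10 FPKM or more it was -0.95. Atp5e, the epsilon subunit of ATP synthase, was the lowest member, with 311 FPKM in wild type and 77.4 in the knockout (log2 difference -1.99). The next were Ndufb2, an accessory subunit of complex I, with 46.6 and 13.4 (-1.73), Uqcrq, a small subunit of complex III, with 91.8 and 32.1 (-1.49), and Ndufa2, another accessory subunit, with 129 and 45.8 (-1.47). Atp5l, the membrane subunit g, had 236 and 85.0 FPKM, and Uqcr11 had 124 and 45.1.

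At the other end were members with near equal values in both genotypes. Atp5s, named as coupling factor B of ATP synthase, had 3.39 FPKM in wild type and 3.64 in the knockout. Atp5sl, which RefSeq names Dmac2, had 8.88 and 7.59. Atp5s and Atp5sl were counted with complex V by name only, and were left out where only structural subunits were kept. They were the complex V members not past the threshold. Cox7a1, the heart and muscle paralogue of Cox7a2, had 1.07 and 1.19. Ndufs1, the largest subunit of complex I, had 41.3 and 43.5, and Ndufa10, an accessory subunit, had 64.7 and 66.1. Sdha, the flavoprotein of complex II, had 77.4 and 68.3 FPKM (log2 difference -0.18), while its partners Sdhb (110 and 68.9), Sdhc (87.1 and 46.9) and Sdhd (63.9 and 38.1) were lower in the knockout.

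The X-linked members were among the lower ones, with 67.7 and 26.4 FPKM for Ndufa1, 99.7 and 48.2 for Ndufb11 and 72.3 and 39.8 for Cox7b.

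**Figure D1:**
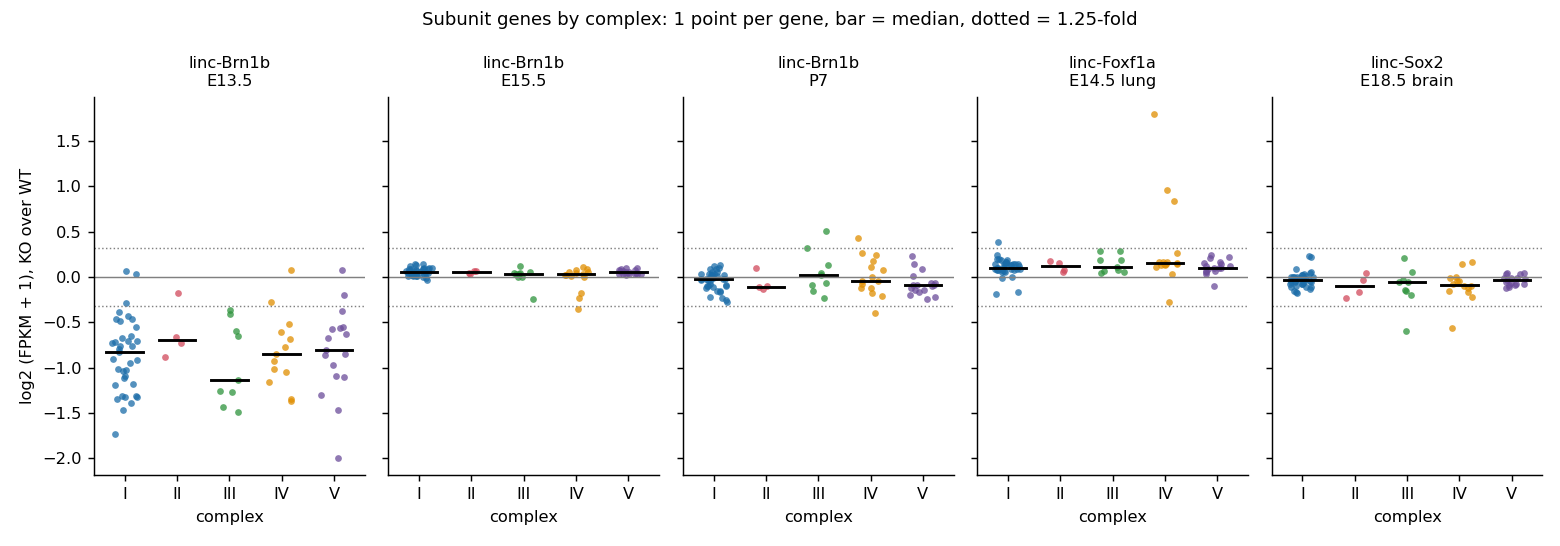
Log2 difference of (FPKM + 1), knockout over wild type, for each member past the minimum, by complex (x axis) in the 5 comparisons (panels). Each point is 1 gene, bars are medians and dotted lines mark the fold threshold of 0.32. At E13.5 the medians of all 5 complexes lie between -1.14 and -0.70, while in the other panels they lie between -0.10 and 0.15. The median of -1.14, that of complex III, is the value of the low row Uqcr.

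Transcript length moved with the E13.5 difference, among the members and among other genes. Lengths were the median of a gene's coding transcripts in the mm9 annotation, known for 98.8% of the members past the minimum. The 10 members of up to 500 bases had a median log2 difference of -1.28, the 32 between 500 and 750 bases one of -0.94, and the 6 between 2000 and 3000 bases one of -0.37. Other genes of the same classes had medians of -0.55, -0.32 and 0.06. Limited to other genes at a mean of 50 FPKM or more, which is nearer the level of the members, the medians were -1.10, -0.75 and 0.02. Across the 79 members, Spearman's rho between length and difference was 0.59, and across 11751 other genes 0.43, as a description of genes that share the same libraries. Not all members followed their length: Ndufb2, at 2413 bases by this measure, had -1.73, and Ndufa12, at 1110 bases, had 103 and 41.1 FPKM (-1.31). The part of transcript length in the result was not tested.

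**Figure D2:**
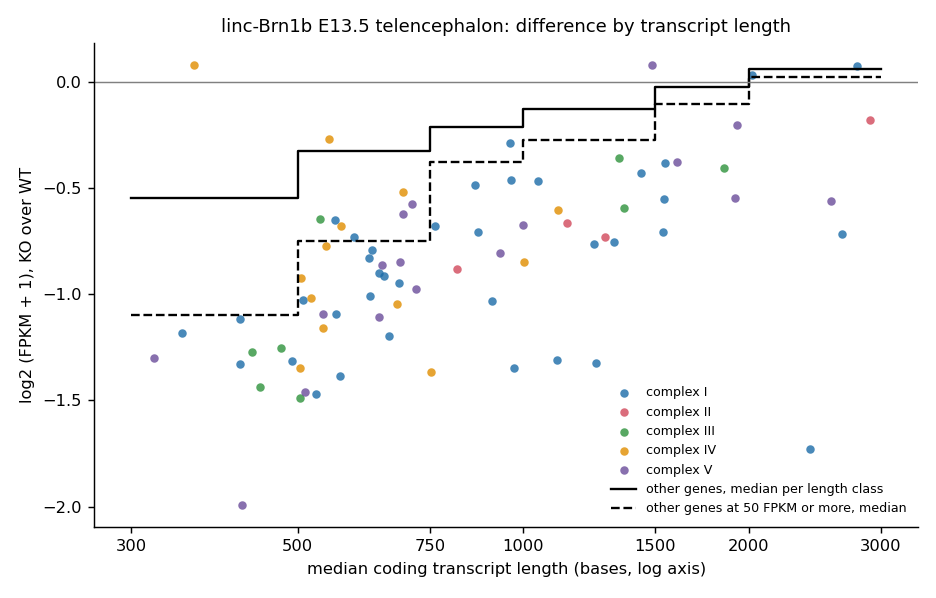
Log2 difference of (FPKM + 1), knockout over wild type at E13.5, against the median length of a gene's coding transcripts in bases (log axis). Points are members coloured by complex, and lines are medians of other genes in 6 length classes, for all other genes (solid) and for those at 50 FPKM or more (dashed). Members and other genes both come nearer to 0 as length increases, and in each class the members' median lies below both lines.

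Other gene lists of the same organelle were compared at E13.5, where 12.3% of all genes were lower by the fold threshold and 10.2% higher. Of 76 mitochondrial ribosomal proteins, 45 were lower by the fold threshold and 0 higher (median -0.37). Of 17 genes of the Krebs cycle and pyruvate dehydrogenase, which feed the chain with NADH and succinate, 3 were lower (median -0.02). Of 30 assembly factors, 6 were lower and 1 higher (median -0.05), and of 15 regulators of mitochondrial biogenesis 0 passed in either direction (median 0.09). Among those regulators Nrf1 had 24.9 and 21.2 FPKM, Gabpa 24.2 and 25.8, and Tfam, which binds and packs mitochondrial DNA, 17.4 and 17.0. Outside the organelle, 72 of 78 cytosolic ribosomal proteins were lower (median -1.05, median transcript length 728 bases). Ndufab1 and Cyc1, subunits that the name rule does not match, had 66.7 and 39.3, and 96.7 and 74.4 FPKM, and cytochrome c itself (Cycs) had 33.8 and 22.7.

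Markers of the dissection and of other cells were read beside these values at E13.5. The summed level of 9 telencephalon genes was 672 FPKM in wild type and 789 in the knockout, and that of 8 progenitor genes 1453 and 1322. The progenitor genes were mixed. Pcna (291 and 203), Hes5, Nes, Sox2 and Vim were lower in the knockout, and Pax6 (51.5 and 58.4), Mki67 (104 and 112) and Top2a (189 and 195) higher. The 8 erythroid genes in the table summed to 1308 and 612 FPKM. Their part in the members' difference was not tested. All 16 cardiac markers were under 1 FPKM in both groups.

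At E15.5 the genotypes were close. Of 81 members past the minimum, 0 were higher by the fold threshold, against 0.592% of all genes, and 1 was lower, against 0.703% of all genes. That gene was Cox4i2, the lung and hypoxia paralogue of Cox4i1, with 1.44 FPKM in wild type and 0.911 in the knockout. At any size 74 of the 81 were higher in the knockout, where 53.5% of all genes were, by a median log2 difference of 0.05 against 0.01 for all genes. Medians by complex ran from 0.03 in complex IV to 0.06 in complex II. The highest were Ndufb6 (64.0 and 71.0 FPKM), Ndufc2 (114 and 126), Ndufa4l2 (2.44 and 2.77) and Uqcr11 (117 and 128), and none reached the threshold. The lowest after Cox4i2 were Uqcr (2.83 and 2.24), Cox6b2 (2.05 and 1.61) and Cox7a1 (1.599 and 1.297), all at low levels.

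Atp5e, the lowest member at E13.5, had 278 FPKM in wild type and 288 in the knockout at E15.5, and Ndufb2 had 56.8 and 60.4. The choroid plexus gene Ttr had 231 FPKM in wild type and 1.39 in the knockout at E15.5, and 9 choroid plexus markers summed to 252 and 6.03. The part of choroid plexus in the members' values was not tested.

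At P7, 3 of 82 members were higher by the fold threshold, against 10.1% of all genes, and 1 was lower, against 8.55% of all genes. The higher ones were Uqcr (2.95 and 4.62 FPKM, log2 difference 0.51), Cox6a2, the heart and muscle paralogue of Cox6a1 (3.07 and 4.49, 0.43), and Uqcrq (114 and 143, 0.32), which stood at the edge of the threshold. Cox6b2, the testis paralogue of Cox6b1, was lower (6.19 and 4.48, -0.39). The next lowest were Ndufc2 (138 and 114), Ndufa4l2 (3.02 and 2.37) and Atp5j (205 and 174), and Cox7a1 (3.22 and 4.07) followed the highest 3.

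At any size 30 of the 82 were higher in the knockout, where 52.2% of all genes were. The median was -0.04, but it was 0.00 once each group was scaled to the same sum over all genes, and those of complexes I and IV (-0.02 and -0.04) turned to 0.02 and 0.01, so no direction can be read from them. Complex V had the largest share of members below 0, with 4 of 17 above and a median of -0.09. Complex III had 5 of 9 above 0 and a median of 0.02, which turned to -0.02 among members at 10 FPKM or more.

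Composition differed between the P7 groups. Of 10 genes expressed in the brain outside the telencephalon, such as Hoxb3 (1.54 and 0.0221 FPKM) and Slc6a5 (3.93 and 0.323), the sum was 17.3 FPKM in wild type and 4.28 in the knockout. Oligodendrocyte and astrocyte genes summed to 997 and 719 and progenitor genes to 211 and 137. Their part in the members' values was not tested.

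Uqcr and Uqcrq lay past the threshold in opposite directions at E13.5 (log2 differences of -1.14 and -1.49) and at P7 (0.51 and 0.32). Uqcr is a row of low FPKM at the locus of Uqcr11, and how reads were shared between both rows is uncertain. Uqcr11 itself had 194 FPKM in wild type and 213 in the knockout at P7.

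In the linc-Foxf1a lung at E14.5, 4 of 83 members were higher in the knockout by the fold threshold, against 3.81% of all genes, and 0 were lower, against 3.56% of all genes. Cox6a2 (chr7:135348950-135349880 in mm9) had 3.27 FPKM in wild type and 13.9 in the knockout, a log2 difference of 1.80. Cox7a1 had 5.19 and 11.02 (0.96) and Cox8b 1.53 and 3.52 (0.84). These 3 encode the complex IV subunits used in heart and skeletal muscle. The fourth was Ndufv3, a complex I subunit, with 80.2 and 105 FPKM (0.38).

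Their widely expressed partners stayed at high levels in both genotypes, with 287 and 293 FPKM for Cox6a1, 144 and 157 for Cox7a2 and 245 and 271 for Cox8a. The share of Cox6a2 in the pair Cox6a1 and Cox6a2 was 1.13% in wild type and 4.53% in the knockout, and that of Cox7a1 in its pair 3.48% and 6.54%. The share of Cox8b among Cox8a, Cox8b and Cox8c was 0.622% and 1.28%. Cox8c was listed at 0 in all 10 groups.

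Markers of heart moved with these 3 genes. All 16 cardiac markers were higher in the knockout by the fold threshold, with a summed level of 448 FPKM in wild type and 1343 in the knockout and none at 0. The atrial peptide gene Nppa had 1.77 and 54.2 FPKM, Myh6 24.1 and 77.5, and Myl7 147 and 422. Of the 12 skeletal muscle markers, 8 passed the minimum and all 8 were higher (sums of 33.0 and 78.6 over the list), and Myh8 was listed at 0 in both groups. The 8 brown fat markers summed to 15.9 and 30.2 FPKM. Most of this was Fabp4, which is also expressed in endothelium, with 12.1 and 26.9, while Ucp1 had 0.0236 and 0.0135, Prdm16 2.93 and 2.42, and Plin1 was listed at 0 in both groups. The 9 lung markers, such as Nkx2-1 (61.4 and 53.1) and Tbx4 (63.7 and 63.7), summed to 1180 and 1208. The part of heart or muscle RNA in the 3 paralogues' difference was not tested.

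**Figure D3:**
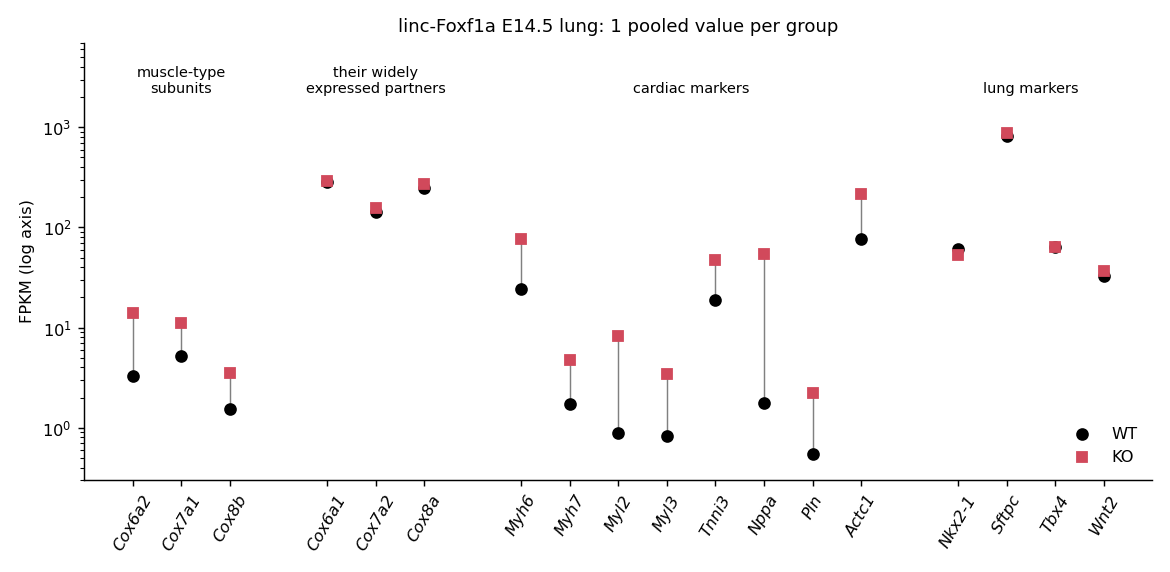
FPKM (log axis) of named genes in linc-Foxf1a lung at E14.5, with circles for wild type and squares for the knockout, 1 pooled value per group. The muscle-type subunits Cox6a2, Cox7a1 and Cox8b and the 8 cardiac markers shown were higher in the knockout, while Cox6a1, Cox7a2, Cox8a and the 4 lung markers had near equal values.

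At any size 78 of the 83 members were higher in the knockout lung, where 51.4% of all genes were, with a median of 0.13 against 0.00 for all genes. Medians by complex ran from 0.10 in complex I to 0.15 in complex IV, and the summed FPKM was 13598 in wild type and 14889 in the knockout. Next to the 4 genes above stood Uqcr (1.62 and 2.21), Uqcr11 (162 and 198), Cox7c (364 and 436) and Atp5e (351 and 417). Cox4i2 (18.9 and 15.46), Ndufa4l2 (14.6 and 12.7), Ndufs5 (83.1 and 74.0) and Atp5s (6.25 and 5.79) were the lowest. Short transcripts, which were the lower ones at E13.5, were the higher ones here. The median was 0.19 in 11 members of up to 500 bases and 0.07 in 6 members of 2000 to 3000 bases, and other genes had 0.08 and 0.00. Of the 76 mitochondrial ribosomal proteins, 64 were higher at any size and 0 by the fold threshold. The part of transcript length here was not tested.

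In the linc-Sox2 brain at E18.5, 0 of 81 members were higher by the fold threshold in the libraries labelled knockout, against 4.71% of all genes, and 2 were lower, against 3.34% of all genes. Both had low levels, with 4.22 FPKM in wild type and 2.45 in the libraries labelled knockout for Uqcr (-0.60) and 3.46 and 2.02 for Cox7a1 (-0.56). Sdhd, an anchor subunit of complex II, followed with 76.4 and 64.7, and Cox4i2 had 2.13 and 1.69. The highest were Ndufa6 (77.5 and 91.6), Ndufa5 (78.8 and 92.2), Uqcrb (139 and 160) and Cox6c (300.1 and 336), with log2 differences from 0.16 to 0.24. At any size 20 of the 81 were higher, where 50.8% of all genes were, and the median was -0.05. Markers of other cells moved in the same comparison, with sums of 853 and 589 FPKM over 9 choroid plexus genes, of which Ttr had 807 and 551, 225 and 143 over 8 erythroid genes, and 341 and 284 over 8 progenitor genes. The genes of the brain outside the telencephalon summed to 19.1 and 21.97 and those of oligodendrocytes and astrocytes to 181 and 202. Their part in the members' values was not tested. Medians by complex ran from -0.10 in complex II to -0.03 in complexes I and V.

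The wild type and knockout groups of the linc-Brn1b strain were also compared between ages, where the P7 step also changes the tissue from telencephalon to whole brain. Between E13.5 and E15.5 the summed level of the Y genes went from 49.2 to 0.00662 FPKM in wild type and from 0.0133 to 21.0 in the knockout, so sex and age cannot be told apart in either of these steps. From E13.5 to E15.5 in wild type, 3 of 81 members were higher by the fold threshold, against 19.9% of all genes, and 1 was lower, against 18.3% of all genes. Ndufa5 (59.3 and 76.0 FPKM), Ndufa12 (103 and 132) and Cox7a1 (1.07 and 1.599) were the higher ones, Cox7a2l (137 and 167) was the next, and Cox6b2 was lower (3.79 and 2.05). Ndufb6 (79.2 and 64.0) came next among the lower. All 4 Sdh genes were lower at any size, where 48.8% of all genes were. At E15.5 Sdha had 69.6 FPKM, Sdhb 104, Sdhc 72.6 and Sdhd 52.6. In complex IV 12 of 14 genes were higher at any size, where 51.2% of all genes were. The 6 neuron genes in the table were higher and the 8 progenitor genes lower by the fold threshold over the same step.

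In the knockout 73 of 80 members were higher at E15.5 than at E13.5, against 21.5% of all genes, and 1 was lower, against 21.1% of all genes. The median was 0.97, and the E13.5 knockout group that enters here is the one described above. Ndufb2 (13.4 and 60.4), Atp5e (77.4 and 288), Uqcrq (32.1 and 107) and Atp5l (85.0 and 276) were the highest. Cox6b2 was lower, with 2.97 and 1.61 FPKM, as it was in wild type, and Ndufs1 (43.5 and 40.6) and Ndufa10 (66.1 and 66.7) were near equal.

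From the E15.5 telencephalon to the P7 brain 72 of 82 members were higher at any size in wild type, against 45.3% of all genes, and 69 in the knockout, against 45.6%. In wild type 46 of 82 were higher by the fold threshold, against 32.2% of all genes, and 2 were lower, against 39.4% of all genes. In the knockout 35 of 82 were higher, against 32.9% of all genes, and 2 were lower, against 39.3% of all genes. The medians were 0.37 and 0.28, while all genes had -0.10 in both. Scaling each group to the same sum over all genes adds 0.11 to the log2 ratio of FPKM in wild type and 0.14 in the knockout, and less to the difference of genes at low FPKM, and the members' count in the knockout was then 56.

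Both genotypes come from separate libraries here, and 73 of the 82 members had the same sign in both (89.0%), near the 91.8% of all genes past the same minimum. Of the members higher by the fold threshold, 30 were shared, which is 65.2% of those in wild type and 85.7% of those in the knockout. Over all genes these shares were 89.9% and 88.3%, so the members' agreement was no higher than that of other genes. Complex IV had the highest median in both, 0.57 in wild type and 0.46 in the knockout, with 13 and 10 of 15 genes past the threshold. Complex V had 8 of 17 in wild type and 3 of 17 in the knockout.

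Cox6a2 had the largest log2 difference, from 0.0784 to 3.07 FPKM in wild type and from 0.107 to 4.49 in the knockout. Cox6b2 went from 2.05 to 6.19 and from 1.61 to 4.48, and Atp5s from 3.65 to 9.50 and from 3.99 to 8.36. Among members at high levels, Ndufb6 went from 64.0 to 127 FPKM in wild type and from 71.0 to 129 in the knockout. Ndufb2 went from 56.8 to 111 and from 60.4 to 103. Ndufa4, now assigned to complex IV but counted by its name with complex I, went from 286 to 548 and from 312 to 503. Sdhd had 52.6 and 94.5 in wild type and 55.1 and 86.3 in the knockout, the largest step of the Sdh genes.

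**Figure D4:**
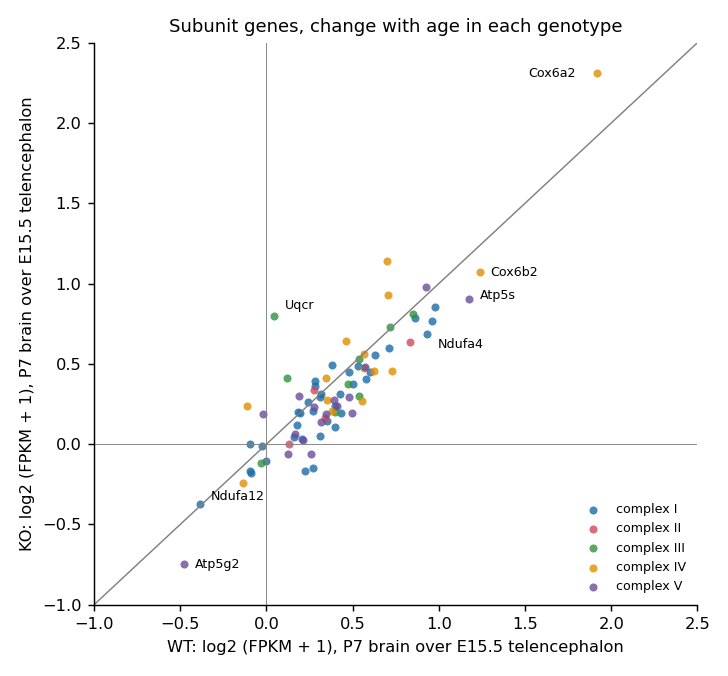
Log2 difference of (FPKM + 1), P7 brain over E15.5 telencephalon, in wild type (x axis) and in the linc-Brn1b knockout (y axis) for the 82 members past the minimum in both. Points are genes coloured by complex, and the diagonal marks equal differences. Most members lie right of and above 0, Cox6a2 is at 1.91 and 2.31, and Atp5g2 and Ndufa12 are below 0 in both.

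Atp5g2 and Ndufa12 were the 2 genes lower by the fold threshold in each genotype. Atp5g2 had 250.3 FPKM at E15.5 and 179 at P7 in wild type, and 260 and 154 in the knockout. Ndufa12 had 132 and 100.7, and 134 and 104. Atp5g1, Atp5g2 and Atp5g3 encode an identical mature subunit c, the ring through which protons pass, with different import signals. Atp5g1 went the other way from Atp5g2, from 98.4 to 188 FPKM and from 100.8 to 199.7, and Atp5g3 from 303 to 452 and from 310.0 to 432.

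The share of Atp5g2 among the 3 genes was 41.3%, 38.4% and 21.9% over the 3 ages in wild type, and 41.6%, 38.7% and 19.6% in the knockout. In the other brain groups, at E18.5, it was 26.7% in wild type and 27.0% in the libraries labelled knockout, and in E14.5 lung 43.8% and 42.4%. At E13.5, where the share was 41.3% and 41.6%, the levels of all 3 genes were lower in the knockout (Atp5g2 279 and 153, Atp5g3 304 and 154, Atp5g1 93.7 and 60.4 FPKM).

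**Figure D5:**
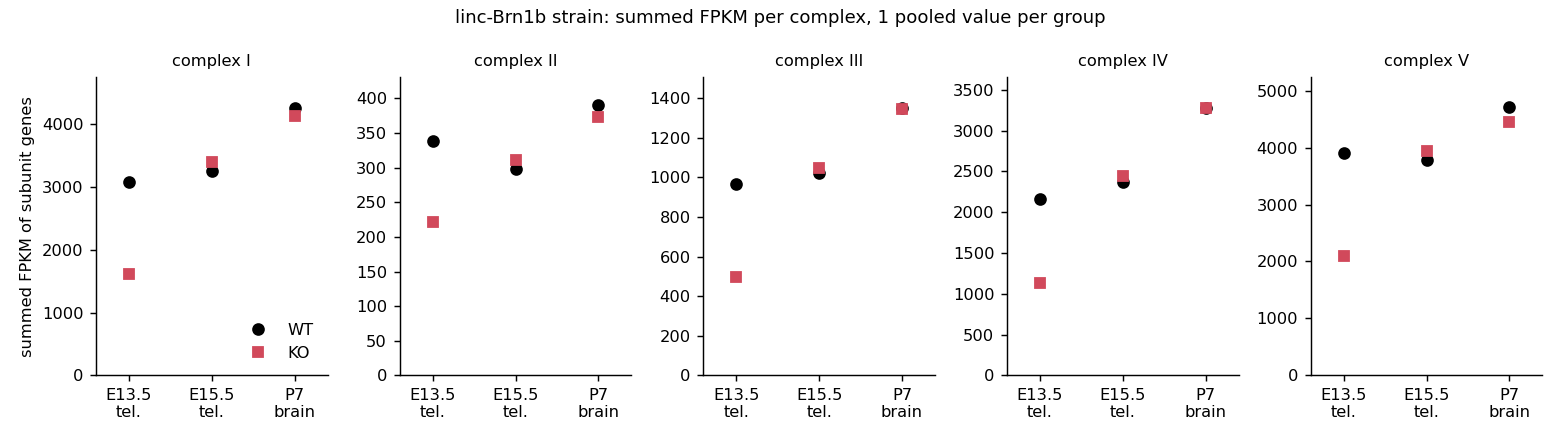
Summed FPKM of the subunit genes of each complex (panels) in the linc-Brn1b strain by age and tissue (tel., telencephalon), with circles for wild type and squares for the knockout, 1 pooled value per group. The knockout is far below wild type only at E13.5, and all 5 sums are highest at P7.

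Other paralogues stayed minor in the brain. Cox4i2 made up 0.245% to 0.468% of its pair in the 8 brain groups, and 4.57% in wild type and 3.41% in knockout lung. Ndufa4l2 made up 0.469% to 1.42% of its pair in brain, and 3.13% and 2.49% in lung. Cox6b2 was 0.408% to 1.71% of its pair in brain and 3.61% and 3.79% in lung. Cox7b2, a testis paralogue of Cox7b, was under 1% of its pair in all 10 groups, with its highest level of 1.07 FPKM in the P7 knockout.

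The related lists did not all follow the members from E15.5 to P7. At this step 32.2% of all genes in wild type and 32.9% in the knockout were higher by the fold threshold. Of 17 genes of the Krebs cycle and pyruvate dehydrogenase, 13 were higher in wild type and 12 in the knockout, with medians of 0.48 and 0.42, and 0 were lower. Mitochondrial ribosomal proteins had medians of -0.15 and -0.21, with 24 and 32 of 76 lower, against 39.4% and 39.3% of all genes. All genes had a median of -0.10 in both genotypes. Of 15 biogenesis regulators in wild type 12 were lower, and 10 of 14 in the knockout, with medians of -0.53 and -0.67. Assembly factors had medians of -0.02 and -0.01. Cytosolic ribosomal proteins were lower, with 74 and 76 of 78 past the threshold. Cell type markers moved with age too, as 10 oligodendrocyte and astrocyte genes summed to 79.7 FPKM at E15.5 and 997 at P7 in wild type, and 79.7 and 719 in the knockout. The part of tissue, cell type and age in these steps cannot be told apart.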

How the data were processed

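Per the labels, the authors used TopHat2, the mm9 genome and Cufflinks 2.0.2, and Cuffdiff2 gave the values. The deposited values are FPKM, 1 per gene and group, pooled by group and scaled within each of the 3 tables. The deposited tables hold 0 columns of values per library. The tables also hold the authors' own log2 fold changes, test statistics, p-values and q-values, which were not used. In the linc-Brn1b table, the value columns of its 15 comparisons (30 of 30) matched the group assigned to them. The same column order was assumed for the linc-Foxf1a and linc-Sox2 tables, where this check could not be made.

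From these values log2 differences with a pseudocount of 1 were computed over genes at a mean of at least 1 FPKM, with pandas 2.3.3 and numpy 2.4.6, and counted from 0.32 (figures: matplotlib 3.10.9). The computation was checked on copies of the values of each first group, with known folds set in some genes. The copies held no noise and the folds were set by the same formula, so only the arithmetic was checked. Named genes were the 4 highest and 4 lowest of each comparison, the 2 highest of each complex in wild type, all paralogues, the X-linked members, the Sdh genes, members past the threshold in opposite directions at 2 ages and genes of the marker and related lists; further members named beside these were chosen after their values were seen. The members and gene lists were chosen with earlier results of these data known; cytosolic ribosomal proteins and the limit of 50 FPKM were added after the values were seen. The mitochondrially encoded genes were not used, since their rows were listed at 0 in 9 of the 10 groups. Positions in mm9 came from GENCODE, promoter stretches from RefSeq. Alternatives were another pseudocount, minimum, scaling, centring, threshold and choice of members. A member of the set is not reported here by name.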

Additional observations from a re-analysis of the deposited data

Results flagged for a closer look

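Uqcr and Uqcrq, small subunits of complex III, lay past the fold threshold in opposite directions at 2 ages of the linc-Brn1b strain. The log2 difference of knockout over wild type was -1.14 for Uqcr and -1.49 for Uqcrq at E13.5, and 0.51 and 0.32 at P7. The difference between ages was not tested, since each group has 1 pooled value. Uqcr shares its locus with Uqcr11, and at 0.32 Uqcrq stood at the threshold.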

How the results depend on the processing

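No paired analysis was possible because the tables hold 1 pooled value per group, and leaving out each replicate was not run for the same reason. Of 232 counts recomputed under another setting, 185 stayed within 1.5 times the reported count, and 202 of 210 medians moved by less than 0.1. The 180 paralogue shares do not depend on the scaling of a group. No genotype median past the fold threshold changed sign, while small medians at P7 did, for the members and for complexes I, III and IV. Single genes were not checked for a change of sign. At E13.5, scaling each group to the same sum gave medians of -0.63 for the members, -0.64, -0.51, -0.66 and -0.62 for complexes I, II, IV and V. The complex III median was -1.26 with a pseudocount of 0.1 and -0.95 at a minimum of 10 FPKM, and the complex IV median -0.73 without a minimum. With a pseudocount of 0.1, 3 members were lower at E15.5 and 2 at P7. Without a minimum, 1 was higher in the linc-Sox2 brain. At a minimum of 10 FPKM, 2 were higher at any size at E13.5, 3 lower at any size at E15.5, 1 higher at P7 and 1 in lung. At that minimum 0 were lower at E15.5, at P7, in the linc-Sox2 brain and from E13.5 to E15.5 in either genotype. At 1.1-fold the numbers higher and lower were 2 and 4 at E15.5, 8 and 17 at P7, 39 and 3 in lung, 5 and 13 in the linc-Sox2 brain, 25 and 11 from E13.5 to E15.5 in wild type, and 61 and 7 from E15.5 to P7 in the knockout. At 1.5-fold, 0 were lower at E15.5, 0 higher and 0 lower at P7, 1 lower in the linc-Sox2 brain, and 0 higher from E13.5 to E15.5 in wild type. From E15.5 to P7 they were 18 and 0 in wild type and 16 and 1 in the knockout. Without the tissue-restricted paralogues, 0 were lower and 4 lower at any size at E15.5, 0 lower at P7, 1 higher and 3 lower at any size in lung (3 also with structural subunits only), 1 lower in the linc-Sox2 brain, and 0 lower from E13.5 to E15.5 in either genotype. From E15.5 to P7, 1 gene was lower in each genotype when scaled to the same sum or centred on the median of all genes, and 56 were higher in the knockout when scaled. The largest shifts of the log2 ratio of FPKM by scaling were 0.19 (knockout over wild type at E13.5) and -0.18 (E13.5 to E15.5 in the knockout). Other causes of these shifts were not tested.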
